A study of Mus musculus with 25 samples.

Results

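Cholesterol synthesis, uptake and control genes were followed in 25 messenger RNA libraries of KPC, a pancreatic ductal adenocarcinoma cell line on a C57BL/6 mouse background. The set holds 27 gene symbols chosen by name: 18 enzymes from acetyl-CoA to cholesterol, 5 regulators of the SREBP transcription factors, and 4 genes for moving sterol inside the cell or releasing it in the lysosome. The choice was made with earlier results of these data known, so the members were not tested as a set. Of the 27 symbols, 26 have a row among the 30926 genes of the table. Fdps, which makes farnesyl diphosphate, is not analysed here. The level filter of at least 5 CPM (counts scaled to a common library total) in at least 5 libraries kept 25 of the 26 among 12473 genes tested, and left out Idi1. Every one of the 25 but Dhcr7 also passes that filter on the 20 libraries from glutamine-free medium alone. On the 5 starved parental libraries alone 16 of the 25 pass, and Acat2, Mvk, Mvd, Fdft1, Tm7sf2, Nsdhl, Dhcr7, Stard4 and Lipa do not.

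The 25 libraries form 5 groups of 5. Parental KPC cells stood for 24 h in complete DMEM medium or in DMEM medium without glutamine, called fed and starved below. The other 3 groups were KPC cells with a short hairpin RNA, and all of them were held in glutamine-free medium for the same 24 h. Their hairpins were shLuc, against luciferase and serving as the control, and shSlug1 and shSlug2, a pair directed at Slug. Glutamine-free medium carried 10% dialysed serum, from which small molecules have been removed, and the labels do not say clearly whether complete medium did, so the loss of glutamine and a change of serum cannot be told apart. No hairpin cells were held in complete medium, and whether the hairpin cells are clones or pools, and the replicates separate cultures, is not stated in the labels. The p-values therefore measure only the spread between these samples.

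Cells make cholesterol from acetyl-CoA through mevalonate, the isoprenoid units, squalene and lanosterol. The genes of this chain are classic targets of SREBP-2, and those of fatty acid synthesis of SREBP-1. Both factors are made as membrane proteins of the endoplasmic reticulum, are carried to the Golgi by Scap when sterol is low and are held back by the Insig proteins when sterol is high. Pancreatic ductal tumour cells can also take cholesterol from lipoproteins, whose esters are split in the lysosome by the acid lipase that Lipa encodes, after which Npc2 and Npc1 pass the sterol out.

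Library totals ran from 158729 to 549893 counts, which makes a single count worth 1.82 to 6.30 CPM, and mitochondrially encoded genes took 14.2% to 28.0% of the counts. The libraries count 3′ ends, so CPM is not corrected for length and levels are not compared between genes. In bulk libraries, fewer cells with a transcript and less of it per cell cannot be told apart. Slug is the protein of Snai2, whose level averaged 7.54 CPM in complete medium, 79.5 in parental cells without glutamine, 55.9 with shLuc, 6.09 with shSlug1 and 4.29 with shSlug2. Of 8 markers of ductal or epithelial tumour cells, 7 were tested and Cldn4 was at or near 0 in every group. The 8 together summed to 4215 to 5322 CPM per library in complete medium, 2117 to 2648 in parental cells without glutamine and 4947 to 6453 with shLuc. In the starved parental cells 6 of the 7 were lower than in complete medium (Krt7, Krt8, Krt18, Krt19, Muc1 and Cdh1) and Sox9 was higher, where 11.7% of all genes tested were called lower and 10.8% higher. With shLuc 4 of the 7 were lower than in complete medium and 1 higher, with a median log2 change of -1.31. Of all genes tested, 15.8% were lower and 17.3% higher in that comparison. The shLuc sum above does not show these lower calls. The part of the epithelial markers in the sterol result was not tested. Among listed fibroblast, leucocyte, endothelial, acinar and islet markers with a row, only Cd14 had a mean above 20 CPM in any group, and it averaged 68.7 CPM in complete medium and 18.9 in the starved parental cells. The leucocyte markers, Cd14 included, summed to 55.1 to 81.5 CPM per library in complete medium and 9.41 to 31.5 in starved parental cells. The acinar sums were 5.36 to 20.5 and 0 to 41.7 CPM in those groups. The part of these markers in the sterol result was not tested. The fibroblast, endothelial and islet sums stayed at or below 15.9 CPM in every library, Col3a1 and Gcg had no count in any, and Ptprc had 2 counts in all 25.

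Sterol genes were broadly lower in parental cells without glutamine. Of 25 members tested, 16 were called lower and 0 higher at an adjusted p under 0.05, where 22.4% of all 12473 genes were called in either direction, 10.8% higher and 11.7% lower. In 17 members all 5 starved libraries lay under all 5 fed ones, a pattern seen in 8.27% of all genes. The median log2 change was -1.62 over the members and -0.06 over all genes. Among the 16 synthesis enzymes tested, 11 were lower, and their median was -2.28. By stage, 4 of 5 early mevalonate enzymes, 1 of 1 isoprenoid enzyme, 1 of 2 enzymes from squalene to lanosterol and 5 of 8 from lanosterol to cholesterol were lower. Of the SREBP regulators 3 of 5 were lower, and of the trafficking genes 2 of 4. Across 11 alternative ways of processing the data the count ran from 16 to 19, and the single member then called higher was Npc1, with edgeR.

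**Figure D1:**
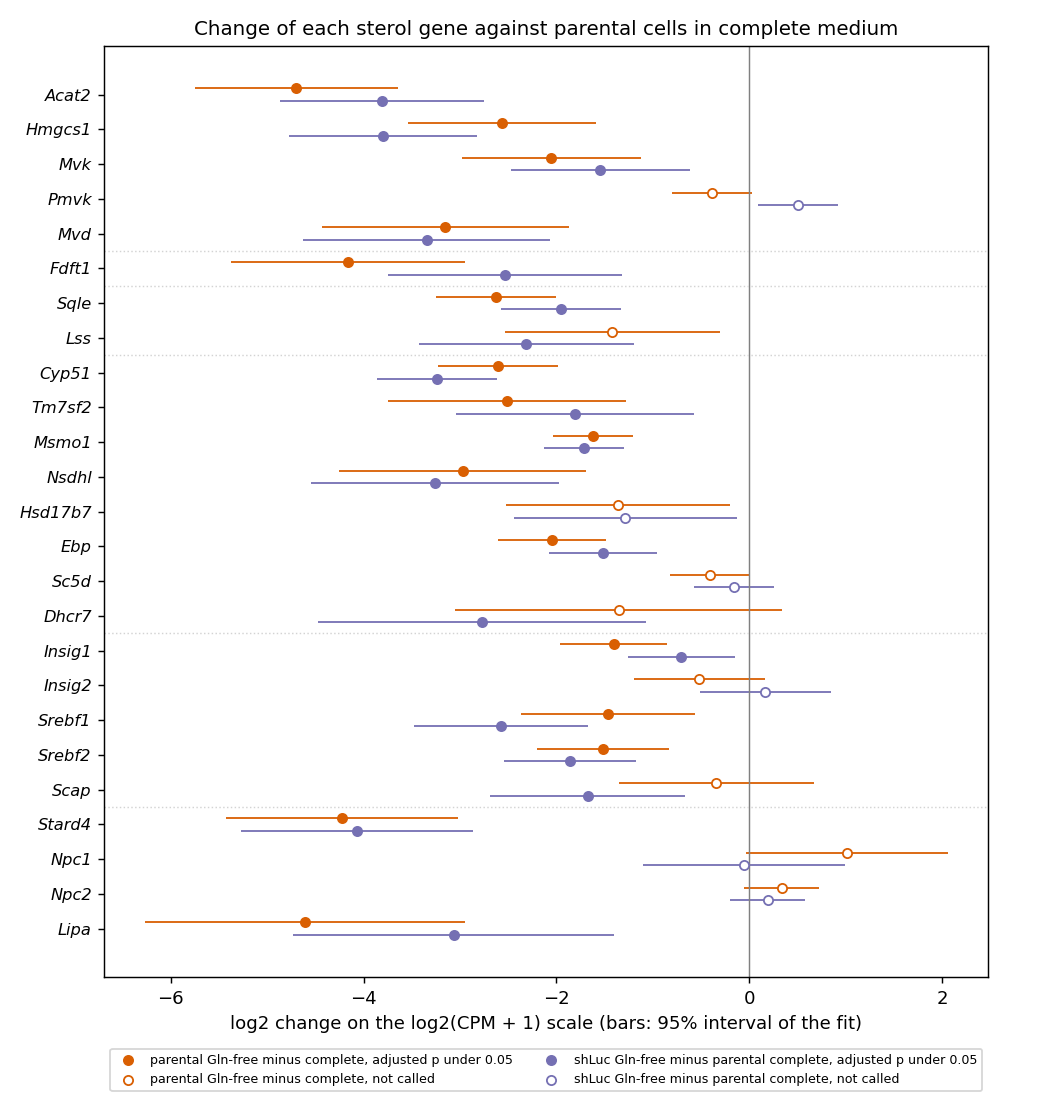
Log2 change of each tested member on the log2(CPM + 1) scale, in pathway order from top to bottom, for parental starved cells (orange) and shLuc starved cells (violet) against parental cells in complete medium; bars are 95% intervals of the fit and filled points are calls at an adjusted p under 0.05. Filled points lie left of 0, and Pmvk, Hsd17b7, Sc5d, Insig2, Npc1 and Npc2 are drawn unfilled in both comparisons.

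Promoter sequences are shown for 6 enzymes, since members that moved together and members that did not can then be read side by side. RefSeq promoters on build GRCm38.p6, 250 bases before to 50 after each start, were matched by symbol for 22 of the 27 members, and none was matched for Fdps, Fdft1, Sqle, Stard4 and Npc1. Capitals mark CCAAT, the box that the factor NF-Y binds, and CACCCCAC, the core of the classic sterol element, each on either strand, so that CCAAT on the opposite strand reads ATTGG. Acat2, Hmgcs1, Mvk and Cyp51 were lower in starved cells, and Pmvk and Sc5d were not called. The promoter nearest the annotated gene start is shown, which is 1 of 2 listed for Pmvk and the only entry for the others.
Acat2, chr17:12960676-12960975, minus strand: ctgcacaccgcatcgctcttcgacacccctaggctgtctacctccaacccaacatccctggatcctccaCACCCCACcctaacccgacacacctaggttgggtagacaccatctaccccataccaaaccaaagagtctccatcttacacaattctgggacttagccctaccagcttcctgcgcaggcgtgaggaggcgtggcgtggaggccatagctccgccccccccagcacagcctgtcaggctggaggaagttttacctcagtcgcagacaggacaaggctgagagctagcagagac
Hmgcs1, chr13:119690101-119690400, plus strand: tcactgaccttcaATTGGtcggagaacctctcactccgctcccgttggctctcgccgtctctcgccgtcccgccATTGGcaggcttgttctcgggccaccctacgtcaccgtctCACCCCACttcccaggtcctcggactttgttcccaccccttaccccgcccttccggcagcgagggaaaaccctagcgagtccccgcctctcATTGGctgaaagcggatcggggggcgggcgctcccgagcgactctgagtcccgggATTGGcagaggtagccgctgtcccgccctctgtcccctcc
Mvk, chr5:114444019-114444318, plus strand: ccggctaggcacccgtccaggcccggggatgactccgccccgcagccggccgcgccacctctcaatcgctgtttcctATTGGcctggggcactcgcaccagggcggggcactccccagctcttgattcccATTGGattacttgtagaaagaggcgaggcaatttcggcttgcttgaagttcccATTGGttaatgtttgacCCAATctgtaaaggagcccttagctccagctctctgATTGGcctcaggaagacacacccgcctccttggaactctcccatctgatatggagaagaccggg
Cyp51, chr5:4104648-4104947, minus strand: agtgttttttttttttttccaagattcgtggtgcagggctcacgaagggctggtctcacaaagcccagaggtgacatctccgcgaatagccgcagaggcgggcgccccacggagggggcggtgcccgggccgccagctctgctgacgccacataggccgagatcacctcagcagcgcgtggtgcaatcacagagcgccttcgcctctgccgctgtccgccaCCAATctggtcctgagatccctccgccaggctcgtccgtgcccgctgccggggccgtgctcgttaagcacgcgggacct
Pmvk, chr3:89454291-89454590, plus strand: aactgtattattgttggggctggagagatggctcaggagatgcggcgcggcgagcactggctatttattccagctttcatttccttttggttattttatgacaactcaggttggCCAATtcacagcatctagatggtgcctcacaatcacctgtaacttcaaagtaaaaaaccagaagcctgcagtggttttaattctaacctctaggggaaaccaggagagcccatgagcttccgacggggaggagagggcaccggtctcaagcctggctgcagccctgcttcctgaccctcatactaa
Sc5d, chr9:42264251-42264550, minus strand: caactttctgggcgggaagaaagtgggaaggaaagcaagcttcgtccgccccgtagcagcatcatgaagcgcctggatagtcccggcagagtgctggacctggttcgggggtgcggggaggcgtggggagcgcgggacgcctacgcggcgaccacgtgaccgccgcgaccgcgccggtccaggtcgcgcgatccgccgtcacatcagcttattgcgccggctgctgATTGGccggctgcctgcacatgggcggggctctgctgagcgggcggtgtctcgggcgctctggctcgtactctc
CCAAT was present in at least 1 listed promoter of 20 of the 22 members, or 90.9%, and of 43.0% of the tested genes with a promoter. Acat2 and Scap were the members without it. CACCCCAC was present in 2 of 22, Acat2 and Hmgcs1, and in 3.76% of tested genes. The looser TCACNCCAC, which overlaps that core, was present in Hmgcs1 and in 1.28% of tested genes, and the core with AT directly before it in 0 of 22 and 0.0667%. GGGCGG, the GC box, was present in 21 of 22 members and 69.9% of tested genes, with Pmvk as the exception. By call in starved parental cells, CCAAT was present in 12 of the 13 with a promoter that were called lower and in 8 of the 9 that were not called or not tested. The matches are letters in a window and do not show binding.

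The early mevalonate enzymes turn acetyl-CoA into isoprenoid units. Below, values after ± are SDs over the 5 libraries of a group, log2 changes are on the log2(CPM + 1) scale with the standard error (SE) of the limma fit, and gene positions are those of GENCODE M21 on build mm10. Acat2 (ENSMUSG00000023832.13, chromosome 17, 12942890 to 12960747, minus strand), the cytosolic thiolase that joins acetyl groups, read 174, 161, 197, 111 and 119 CPM in the 5 libraries from complete medium (replicates 1 to 5) and 0, 5.21, 6.30, 12.7 and 9.41 CPM in the 5 parental libraries without glutamine. The groups were far apart, and the fed mean of 153 ± 36.7 CPM (SD, n = 5) was 22.7 times the starved mean of 6.73 ± 4.77 (log2 change -4.70, SE 0.53, adjusted p = 1.0e-10). Hmgcs1 (ENSMUSG00000093930.2, chromosome 13, 119690379 to 119708260, plus strand), the synthase of the next step, read 171, 193, 150.0, 167 and 170.1 CPM with glutamine and 19.1, 41.7, 31.5, 23.6 and 28.2 CPM without it. Its fed libraries lay close together, the groups did not overlap, and it fell 5.91-fold to 28.8 ± 8.57 CPM (log2 change -2.56, SE 0.49, adjusted p = 3.5e-05). Mvk, mevalonate kinase, read 67.0, 67.0, 42.9, 35.2 and 59.4 CPM in fed and 9.56, 15.6, 25.2, 12.7 and 4.70 CPM in starved libraries. The lowest fed library of Mvk stood above the highest starved one, and the means of 54.3 ± 14.5 and 13.6 ± 7.66 CPM differed 4.00-fold (log2 change -2.05, SE 0.46, adjusted p = 4.8e-04).

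Pmvk (ENSMUSG00000027952.16, chromosome 3, 89454541 to 89469013, plus strand), which adds the next phosphate, was the early enzyme that did not pass the test. It read 67.0, 63.0, 94.3, 52.7 and 51.3 CPM in complete medium and 47.8, 52.1, 50.4, 47.3 and 47.0 CPM without glutamine. The starved libraries lay close together at the lower edge of the fed ones, with an overlap (log2 change -0.38, SE 0.21, adjusted p = 0.193). Mvd, the decarboxylase that yields isopentenyl diphosphate, read 58.9, 59.1, 72.9, 61.5 and 29.7 CPM in fed libraries and 3.19, 5.21, 6.30, 3.64 and 9.41 CPM in starved ones. Its starved values rest on 7 counts in all 5 libraries. It fell 10.2-fold from 56.4 ± 16 to 5.55 ± 2.49 CPM, with no overlap (log2 change -3.15, SE 0.64, adjusted p = 1.0e-04). Idi1, the isomerase of isopentenyl diphosphate, was low throughout, at 7.81 ± 3.45 CPM in complete medium (range 3.94 to 12.9, 15 counts in all 5 libraries). It had 0 counts in the starved parental libraries, which allows up to 2.10 CPM over the group at 3 counts, and no fold or test is given for it.

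Fdft1 (ENSMUSG00000021273.10, chromosome 14, 63145150 to 63179578, minus strand), squalene synthase, commits the chain to sterols. It read 123, 94.5, 167, 169.9 and 75.6 CPM in complete medium and 22.3, 5.21, 0, 16.4 and 4.70 CPM in the starved parental libraries. Every fed library stood far above every starved one, and the mean fell 13.0-fold from 126 ± 42.3 to 9.72 ± 9.26 CPM (log2 change -4.16, SE 0.61, adjusted p = 1.5e-07). Fdft1 overlaps the cathepsin gene Ctsb on the opposite strand, and the labels do not say whether counting used strand. Ctsb averaged 204 ± 34.0 CPM in complete medium and 169 ± 23.3 without glutamine (adjusted p = 0.230). Sqle, squalene epoxidase, read 145, 98.5, 154, 144 and 119 CPM in fed and 9.56, 52.1, 25.2, 10.9 and 23.5 CPM in starved libraries. Starved replicate 2 was its highest starved library and still lay under all fed ones (log2 change -2.63, SE 0.31, adjusted p = 4.4e-10). Lss, the cyclase that closes the rings to lanosterol, read 85.7, 78.8, 51.4, 52.7 and 45.9 CPM with glutamine and 19.1, 15.6, 18.9, 16.4 and 56.4 CPM without. It did not pass the test (log2 change -1.42, SE 0.56, adjusted p = 0.0575), and its groups overlapped through starved replicate 5 alone. Without that library its adjusted p was 0.0254, and edgeR and DESeq2 called it lower with all libraries.

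**Figure D2:**
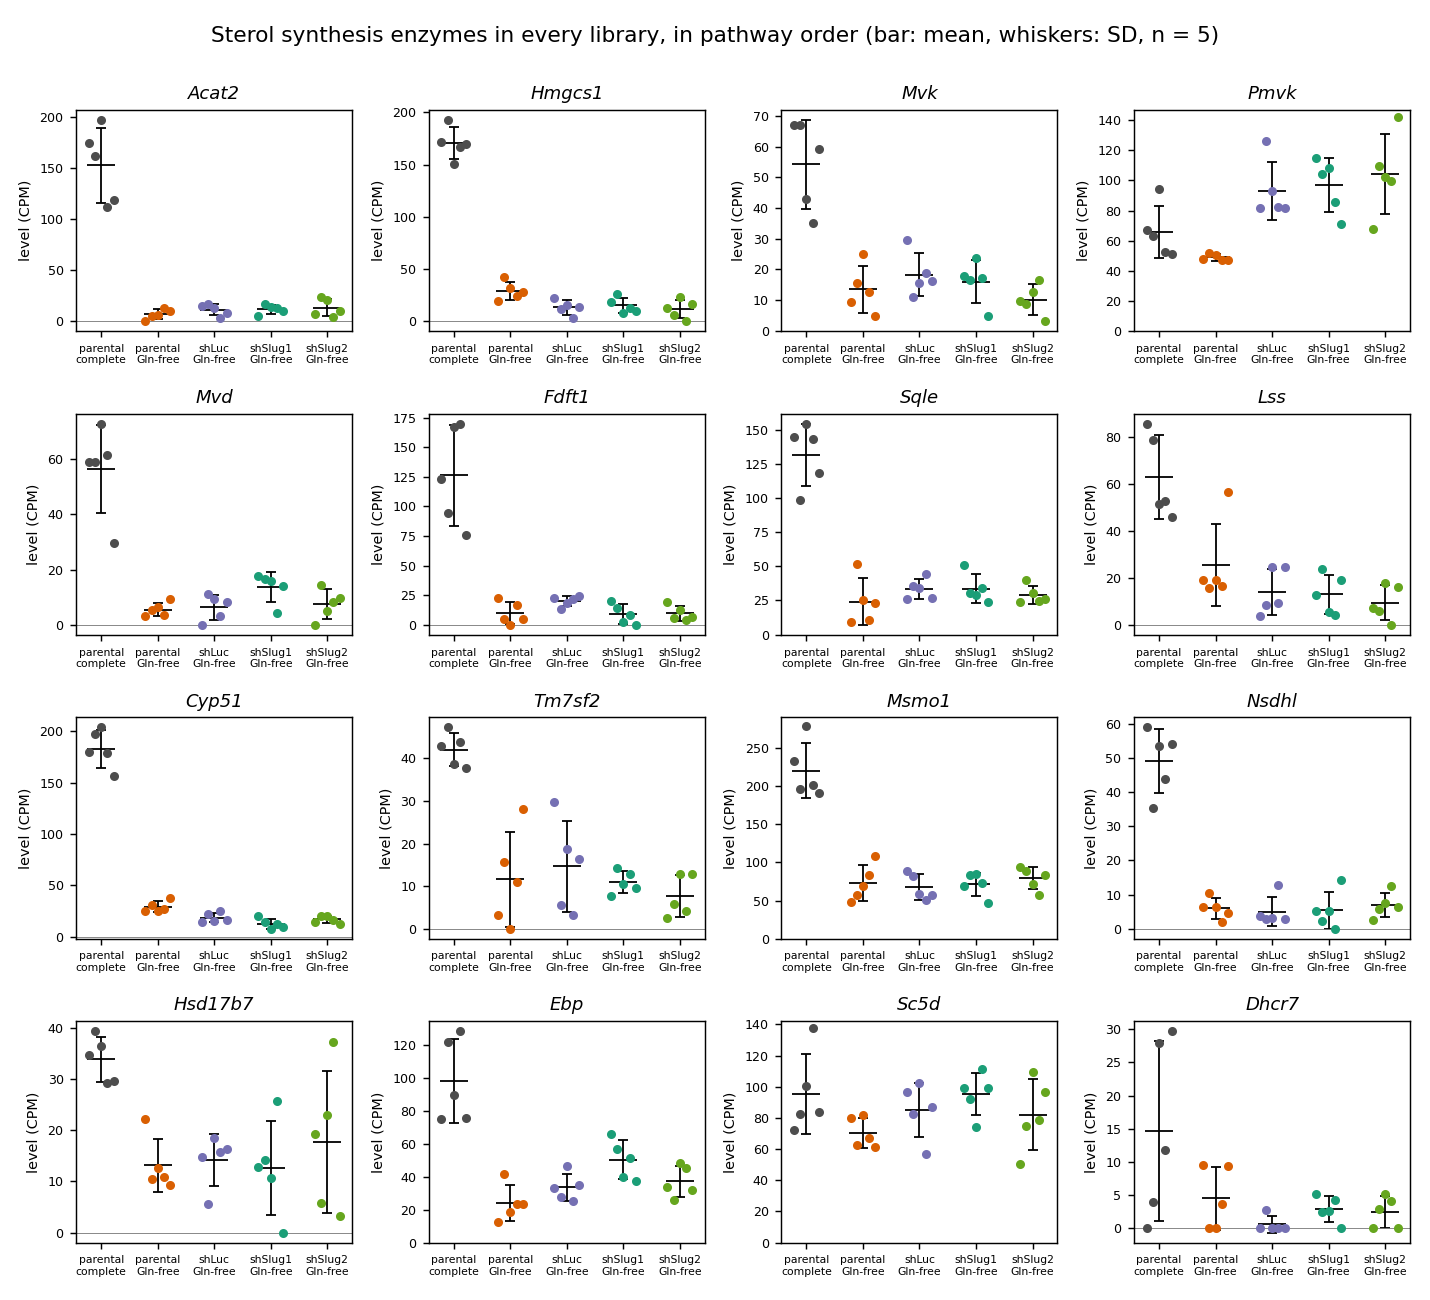
CPM of the 16 tested synthesis enzymes in all 25 libraries, 1 panel per gene in pathway order; points are libraries, the bar is the group mean and whiskers are the SD (n = 5), and the vertical scale differs between panels. In 11 of the 16 panels the 5 fed parental libraries sit above all 20 starved libraries, while Pmvk and Sc5d show no such gap.

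From lanosterol to cholesterol, 8 enzymes remove methyl groups and move or reduce double bonds. Cyp51 (ENSMUSG00000001467.5, chromosome 5, 4081145 to 4104746, minus strand), the lanosterol demethylase, read 179, 197, 204, 179 and 157 CPM in complete medium and 25.5, 31.3, 25.2, 27.3 and 37.6 CPM without glutamine. Both groups were tight and well apart, at 183 ± 18.4 and 29.4 ± 5.21 CPM (log2 change -2.61, SE 0.31, adjusted p = 6.2e-10). Akap9 overlaps Cyp51 on the opposite strand and moved the other way, from 112 ± 31.5 to 183 ± 9.87 CPM (adjusted p = 0.00137). Tm7sf2, a sterol reductase that acts after Cyp51, read 42.8, 47.3, 38.6, 43.9 and 37.8 CPM in fed libraries and 3.19, 15.6, 0, 10.9 and 28.2 CPM in starved ones. Its starved libraries scattered widely but all lay below the fed ones (log2 change -2.51, SE 0.62, adjusted p = 0.00140). Vps51, a vesicle tethering gene on the same strand that overlaps Tm7sf2, averaged 12.3 ± 3.16 CPM fed and 3.77 ± 3.52 starved (adjusted p = 0.0329), so reads shared by the pair cannot be told apart.

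Msmo1, Nsdhl and Hsd17b7 together strip methyl groups from the sterol ring. Msmo1, the methyl oxidase, read 233, 197, 279, 202 and 192 CPM with glutamine and 47.8, 57.3, 69.3, 83.7 and 108 CPM without it. Its groups stood apart, and it fell 3.01-fold (log2 change -1.62, SE 0.21, adjusted p = 4.9e-09). Nsdhl, the decarboxylating dehydrogenase, read 58.9, 35.4, 53.6, 43.9 and 54.0 CPM in complete medium and 6.38, 10.4, 6.30, 1.82 and 4.70 CPM in starved libraries. Its starved values rest on 7 counts in all 5 libraries against 91 fed, an 8.30-fold difference of the means (log2 change -2.97, SE 0.64, adjusted p = 2.6e-04). Hsd17b7, the ketoreductase of the trio, averaged 33.9 ± 4.37 CPM fed (range 29.3 to 39.4) and 13.1 ± 5.26 CPM starved (range 9.41 to 22.3). Its groups did not overlap, yet it missed the threshold (log2 change -1.36, SE 0.58, adjusted p = 0.0849), and edgeR and DESeq2 called it lower.

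Ebp, Sc5d and Dhcr7 carry out the last steps on the double bonds. Ebp, the sterol isomerase, read 75.0, 122, 90.0, 129 and 75.6 CPM in complete medium and 12.8, 41.7, 18.9, 23.6 and 23.5 CPM without glutamine. The fed libraries of Ebp all stood higher, and it fell 4.08-fold to 24.1 ± 10.8 CPM (log2 change -2.05, SE 0.28, adjusted p = 3.1e-08). Sc5d, the desaturase, read 72.3, 82.7, 101, 138 and 83.7 CPM fed and 79.7, 62.5, 81.9, 67.3 and 61.1 CPM starved. Those ranges overlapped and Sc5d was not called, with a 95% interval of the log2 change of -0.82 to 0.01 (log2 change -0.40, SE 0.21, adjusted p = 0.163). Dhcr7, the reductase that yields cholesterol, was too low to read closely, at 14.6 ± 13.6 CPM fed (range 0 to 29.7) and 4.52 ± 4.77 CPM starved (range 0 to 9.56). Its groups overlapped and it was not called (log2 change -1.35, SE 0.85, adjusted p = 0.276).

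Both SREBP genes were lower in starved parental cells. Srebf2, which encodes SREBP-2, read 126, 74.8, 70.7, 105 and 59.4 CPM in fed and 38.3, 20.8, 31.5, 27.3 and 28.2 CPM in starved libraries. The groups of Srebf2 did not overlap, at 87.3 ± 27.5 against 29.2 ± 6.36 CPM (log2 change -1.52, SE 0.34, adjusted p = 4.9e-04). Srebf1, the SREBP-1 gene, read 50.9, 82.7, 62.2, 73.2 and 62.1 CPM with glutamine and 22.3, 36.5, 25.2, 16.4 and 18.8 CPM without. It too showed no overlap and fell 2.78-fold (log2 change -1.47, SE 0.45, adjusted p = 0.0119). Srebf1 overlaps Rai1 on the opposite strand, and Rai1 averaged 33.7 ± 10.7 CPM fed and 29.4 ± 6.13 starved (adjusted p = 0.856). Hmgcs1, Mvd, Idi1, Lss, Insig2, Srebf2, Scap and Npc1 also overlap annotated genes, which were not analysed here. Insig1, the retention protein whose own gene is an SREBP target, read 50.9, 59.1, 64.3, 52.7 and 64.8 CPM fed and 15.9, 20.8, 37.8, 14.5 and 23.5 CPM starved. Its highest starved library, replicate 3, lay under its lowest fed one, and it fell 2.59-fold to 22.5 ± 9.28 CPM (log2 change -1.41, SE 0.28, adjusted p = 6.5e-05).

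Insig2, the second retention gene, read 48.2, 15.8, 42.9, 35.2 and 51.3 CPM in complete medium and 15.9, 10.4, 37.8, 38.2 and 37.6 CPM without glutamine. Each group held low and high libraries, they overlapped, and Insig2 was not called (log2 change -0.52, SE 0.34, adjusted p = 0.301). Scap, the escort protein, averaged 26.7 ± 9.27 CPM fed (range 16.1 to 35.4) and 21.5 ± 9.38 CPM starved (range 10.4 to 30.9). It overlapped and was not called (log2 change -0.34, SE 0.51, adjusted p = 0.706).

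The sterol handling genes split into a pair that fell steeply and a pair that did not pass. Stard4, a soluble sterol carrier, read 139, 142, 148, 146 and 116 CPM in fed libraries and 12.8, 10.4, 0, 12.7 and 9.41 CPM in starved ones. It fell 15.3-fold from 138 ± 12.9 to 9.06 ± 5.27 CPM, with every starved library far below the fed ones (log2 change -4.23, SE 0.60, adjusted p = 7.7e-08). Lipa (ENSMUSG00000024781.15, chromosome 19, 34492318 to 34527474, minus strand), the lysosomal acid lipase, read 53.6, 86.7, 47.2, 38.1 and 70.2 CPM with glutamine and 6.38, 0, 0, 9.09 and 0 CPM without it. It had no count in 3 of the 5 starved libraries, and 7 counts in all of them against 103 fed (log2 change -4.61, SE 0.83, adjusted p = 1.4e-05).

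Npc2, the soluble lysosomal sterol binder, read 112, 55.1, 105, 108 and 129.6 CPM in complete medium and 124, 130.3, 145, 107 and 118 CPM in starved parental cells. The starved libraries of Npc2 lay inside or just above the fed range, and it was not called (log2 change 0.34, SE 0.19, adjusted p = 0.231). Npc1, the membrane exporter that receives sterol from Npc2, averaged 17.3 ± 11.1 CPM fed (range 7.88 to 34.3) and 32.7 ± 11.8 CPM starved (range 18.9 to 45.5). Its mean was higher in starved cells, the groups overlapped and limma did not call it (log2 change 1.01, SE 0.52, adjusted p = 0.171). With edgeR its adjusted p was 0.0423, the only call of a member as higher in starved parental cells among the alternatives run.

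**Figure D3:**
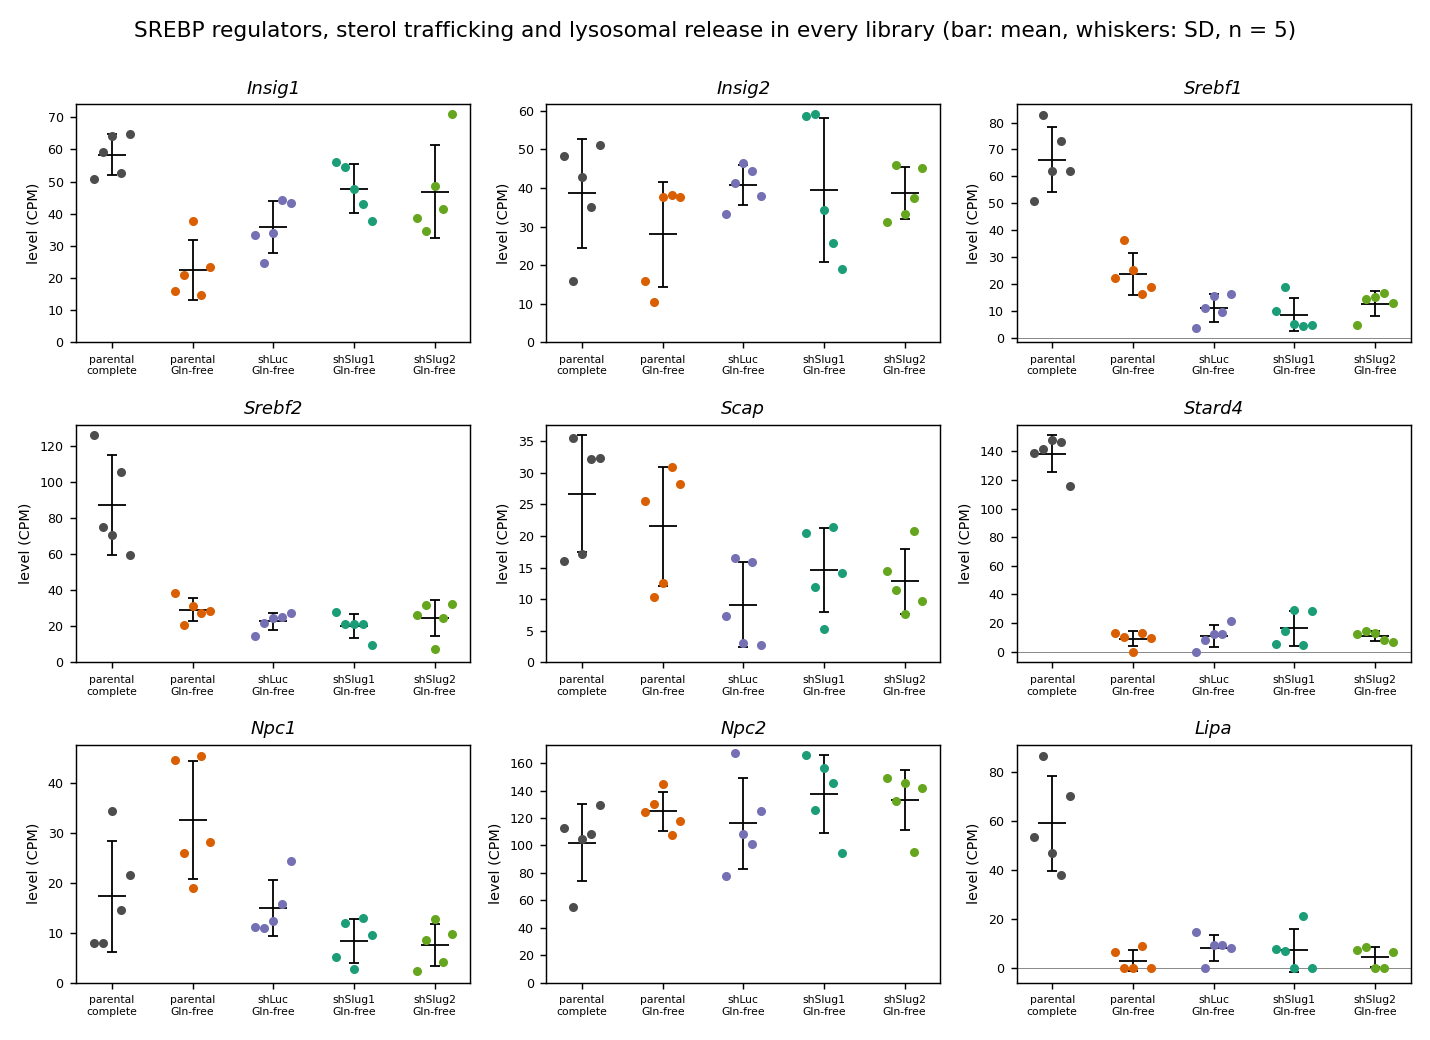
CPM of the 5 SREBP regulators and the 4 trafficking and lysosomal genes in all 25 libraries; points are libraries, the bar is the group mean and whiskers are the SD (n = 5), with a separate vertical scale per panel. Srebf1, Srebf2, Stard4 and Lipa are high in the fed parental group alone, whereas Insig2 and Npc2 overlap across all groups.

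Genes around the pathway were taken from 6 lists of companion genes, each described by its counts, which are to be read against the 10.8% of all genes tested that were called higher and the 11.7% called lower in starved parental cells. Of 6 tested genes for the acetate supply and the entry to the pathway, 3 were lower and 0 higher, with a median log2 change of -0.69. Slc25a1, the mitochondrial citrate carrier, fell from 157 ± 24.3 to 41.0 ± 8.08 CPM (log2 change -1.92, SE 0.23, adjusted p = 1.0e-09). Acss2, which activates acetate, fell from 12.1 ± 7.30 to 1.00 ± 1.45 CPM (log2 change -2.78, SE 0.77, adjusted p = 0.00490), and the mitochondrial thiolase Acat1 from 47.8 ± 14.6 to 28.1 ± 17.2 CPM (adjusted p = 0.0280). Of 14 tested genes of the isoprenoid and dolichol branches, which draw on the same units for other products, 1 was lower and 0 higher (median -0.27), a share under that of all genes. That gene was Fntb, a subunit of farnesyltransferase, at 32.6 ± 6.46 CPM fed and 19.3 ± 13.0 starved (adjusted p = 0.0219).

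Among 14 tested genes of SREBP processing and sterol sensing, 3 were higher and 1 lower, with a median of 0.01, and the share called is near the 22.4% of all genes. Tmem97, a partner of Npc1 that is itself sterol regulated, fell from 55.0 ± 5.71 to 18.4 ± 12.1 CPM (log2 change -1.76, SE 0.33, adjusted p = 2.7e-05). Erlin1 rose from 43.7 ± 10.0 to 76.1 ± 15.7 CPM (adjusted p = 0.0180), Paqr3 from 6.30 ± 4.85 to 20.5 ± 8.04 CPM (adjusted p = 0.0280) and the SREBP-cleaving protease gene Mbtps2 from 22.2 ± 9.42 to 52.4 ± 11.5 CPM (adjusted p = 0.0289). Of 19 tested genes for sterol movement, storage and lipoprotein receptors, 4 were higher and 5 lower (median -0.19), against 10.8% and 11.7% of all genes. Vldlr, the very low density lipoprotein receptor, rose from 11.7 ± 1.69 to 72.5 ± 17.6 CPM (log2 change 2.51, SE 0.34, adjusted p = 2.8e-08), and the related receptor gene Lrp8 fell from 24.97 ± 9.61 to 3.80 ± 3.86 CPM (adjusted p = 0.00202). Stard3nl rose from 82.2 ± 12.7 to 138 ± 29.1 CPM (adjusted p = 4.0e-04) and Osbpl2, a sterol transfer protein gene, from 33.3 ± 12.8 to 72.5 ± 28.5 CPM (adjusted p = 0.00182).

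LXR is the receptor that senses excess sterol. Of 6 tested LXR targets and efflux genes, 1 was lower and 0 higher (median -0.78), a share near the 11.7% of all genes, and that gene was the phospholipid remodelling enzyme Lpcat3, at 77.1 ± 14.2 CPM fed and 45.1 ± 23.9 starved (adjusted p = 0.0188). The genes listed as SREBP-1 fatty acid targets were lower in larger number, 11 of 16 tested and 0 higher, with a median log2 change of -1.30. Scd2, a fatty acid desaturase, fell from 511 ± 26.2 to 72.0 ± 13.4 CPM (log2 change -2.83, SE 0.25, adjusted p = 2.5e-14). Elovl6, an elongase, fell from 98.2 ± 10.7 to 5.46 ± 3.43 CPM (log2 change -4.27, SE 0.59, adjusted p = 3.5e-08). Acsl3, an acyl-CoA synthetase, fell from 165 ± 23.1 to 36.7 ± 10.9 CPM (adjusted p = 1.3e-07), and Mid1ip1, an activator of fatty acid synthesis, from 121 ± 17.7 to 50.05 ± 17.8 CPM (adjusted p = 3.0e-07). Tmem97 stands on this list as well and is counted among the 11.

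Sterol genes were also broadly lower in the starved shLuc cells than in parental cells in complete medium. Line and medium both differ in this comparison and it shares its fed libraries with the previous one. Of 25 members, 19 were lower and 0 higher, where 33.1% of all genes were called in either direction, 17.3% higher and 15.8% lower, and the median log2 change was -1.86 against -0.02 over all genes. Dhcr7 is among the 19, on 1 count in the 5 shLuc libraries, and those libraries overlapped the fed ones. It passes the level filter only with the fed libraries included. The hairpin libraries lay wholly below complete medium in 18 members with shLuc, 17 with shSlug1 and 16 with shSlug2, where 12.1%, 15.8% and 14.2% of all genes did. All 20 starved libraries, parental and hairpin, lay below all 5 fed ones in 15 of 25 members, against 4.05% of all tested genes, and in 0 members did they lie above. These 15 were Acat2, Hmgcs1, Mvk, Mvd, Fdft1, Sqle, Cyp51, Tm7sf2, Msmo1, Nsdhl, Ebp, Srebf1, Srebf2, Stard4 and Lipa. The summed level of 17 enzymes was 1565 ± 156 CPM in complete medium, 395 ± 49.4 in starved parental cells, 450.1 ± 44.4 under shLuc, 471 ± 70.5 under shSlug1 and 445 ± 60.4 under shSlug2 (SD, n = 5 each), so the starved groups stood at 25.3%, 28.8%, 30.1% and 28.5% of the fed mean.

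**Figure D4:**
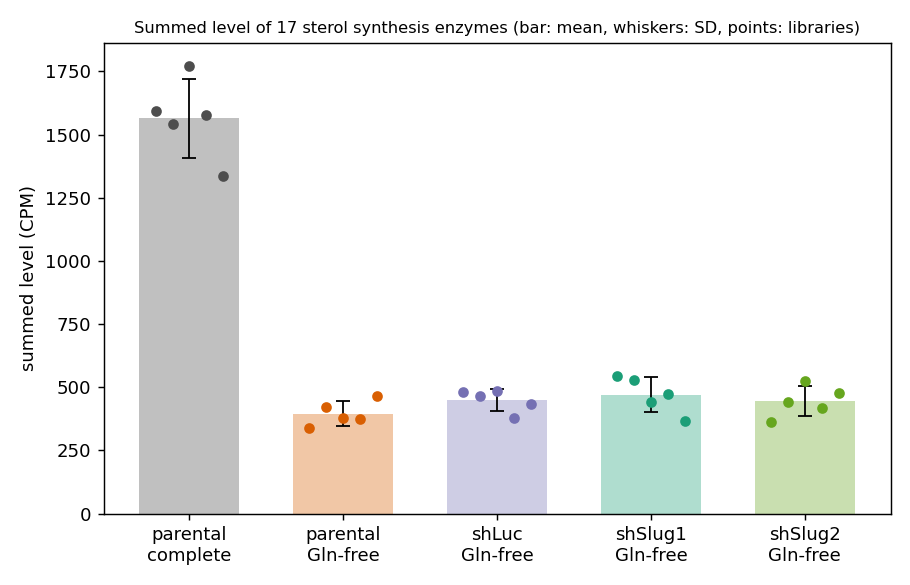
Summed CPM of 17 sterol synthesis enzymes (the 16 tested ones and Idi1) in each library; bars are group means, whiskers the SD (n = 5) and points the libraries. The 4 starved groups lie between 338 and 543 CPM per library and the fed parental libraries between 1336 and 1773.

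Early enzymes in the hairpin cells were read in the order shLuc, shSlug1 and shSlug2, with replicates 1 to 5 in each. Acat2 read 14.8, 16.5, 12.4, 3.16 and 8.14 CPM with shLuc, then 5.10, 16.6, 13.2, 12.9 and 9.45 CPM with shSlug1 and 7.22, 23.0, 20.4, 4.14 and 9.70 CPM with shSlug2. Hmgcs1 read 22.2, 11, 15.5, 3.16 and 13.6 CPM, then 17.9, 26.1, 7.94, 12.9 and 9.45 CPM and 12.04, 5.76, 23.0, 0 and 16.2 CPM. Both stayed under every fed library in all 15, and with shLuc Hmgcs1 averaged 13.1 CPM against 28.8 in starved parental cells (adjusted p = 0.0561). Next to Acat2 lies Acat3, a close copy whose reads may be shared with it, and it averaged 2.54 ± 3.22 CPM in complete medium, 3.49 ± 6.83 in starved parental cells and 22.4 ± 9.20 with shLuc. Acat3 was higher with shLuc than in complete medium (log2 change 3.11, adjusted p = 0.00110), so the low Acat2 values of shLuc cells carry that uncertainty. Mvk read 29.7, 11, 15.5, 19.0 and 16.3 CPM with shLuc, 17.9, 16.6, 23.8, 17.2 and 4.72 CPM with shSlug1 and 9.63, 8.63, 12.8, 16.6 and 3.23 CPM with shSlug2. Mvd read 0, 11, 9.30, 3.16 and 8.14 CPM, 17.9, 16.6, 15.9, 4.29 and 14.2 CPM and 0, 14.4, 5.11, 8.29 and 9.70 CPM in the same order. Neither reached the lowest fed library, and all 3 groups of each overlapped.

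Of the hairpin groups only shLuc was tested against parental cells. Pmvk, in which every hairpin group overlapped complete medium, was higher with shLuc than in starved parental cells. It read 81.6, 126, 93.0, 82.3 and 81.4 CPM with shLuc, 115, 104, 109, 85.8 and 70.9 CPM with shSlug1 and 67.4, 109, 102, 99.4 and 142 CPM with shSlug2. Each shLuc library lay above every starved parental one, with means of 93.0 ± 19.4 and 48.9 ± 2.22 CPM (log2 change 0.89, SE 0.21, adjusted p = 7.5e-04). Against complete medium the shLuc mean was 1.42 times as high, which missed the threshold (log2 change 0.51, SE 0.21, adjusted p = 0.0504), and was called higher in several alternatives, edgeR among them. In all, shLuc and starved parental cells differed in 3 of 25 members, 2 higher and 1 lower, where 23.6% of all genes were called, 13.5% higher and 10.1% lower. That share of members is under the share of all genes. Fdft1 was the other higher one (log2 change 1.62, SE 0.61, adjusted p = 0.0429). It read 22.2, 13.7, 18.6, 22.2 and 24.4 CPM with shLuc, 20.4, 14.2, 2.65, 8.58 and 0 CPM with shSlug1 and 19.3, 5.76, 12.8, 4.14 and 6.46 CPM with shSlug2, and its shLuc libraries overlapped the starved parental ones. The call was lost with edgeR (adjusted p = 0.217) and without starved parental replicate 3, where Fdft1 had no count (log2 change 0.93, adjusted p = 0.245). Scap was the lower one, at 9.11 ± 6.70 CPM (range 2.71 to 16.5) against 21.5 ± 9.38 (log2 change -1.33, SE 0.51, adjusted p = 0.0459), and this call too was lost in several alternatives. With TMM scaling the split was 3 higher and 0 lower, and without mitochondrial genes 1 higher and 3 lower. The count of 3 became 1 without starved parental replicate 5 or shLuc replicate 3, and 5 without shLuc replicate 2.

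Sqle read 25.96, 35.7, 34.1, 44.3 and 27.1 CPM with shLuc, 51.0, 30.8, 29.1, 34.3 and 23.6 CPM with shSlug1 and 24.1, 40.3, 30.6, 24.9 and 25.9 CPM with shSlug2. Lss read 3.71, 8.25, 24.8, 9.49 and 24.4 CPM, 12.8, 23.7, 5.29, 4.29 and 18.9 CPM and 7.22, 5.76, 17.9, 0 and 16.2 CPM in that order. Against complete medium shLuc was lower in both, and for Lss the log2 change was -2.31 (adjusted p = 7.6e-04). Cyp51 read 14.8, 22, 15.5, 25.3 and 16.3 CPM with shLuc, 20.4, 14.2, 7.94, 12.9 and 9.45 CPM with shSlug1 and 14.4, 20.1, 20.4, 16.6 and 12.9 CPM with shSlug2. Tm7sf2 read 29.7, 5.50, 18.6, 3.16 and 16.3 CPM, 7.65, 14.2, 10.6, 12.9 and 9.45 CPM and 2.41, 5.76, 12.8, 4.14 and 12.9 CPM. Cyp51 overlapped across the 3 groups, and Tm7sf2 scattered most with shLuc, where its call against complete medium (log2 change -1.80, SE 0.62, adjusted p = 0.0186) was lost without shLuc replicate 2 or 4.

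Of the demethylation enzymes, Msmo1 read 89.0, 82.5, 58.9, 50.6 and 57.0 CPM with shLuc, 68.9, 82.9, 84.7, 72.9 and 47.2 CPM with shSlug1 and 93.9, 89.2, 71.5, 58.0 and 84.0 CPM with shSlug2. Nsdhl read 3.71, 2.75, 3.10, 12.7 and 2.71 CPM, 5.10, 2.37, 5.29, 0 and 14.2 CPM and 2.41, 5.76, 7.66, 12.4 and 6.46 CPM in the same groups. All of these lie under the fed libraries and overlap each other. Ebp read 33.4, 27.5, 46.5, 25.3 and 35.3 CPM with shLuc, 66.3, 56.9, 39.7, 51.5 and 37.8 CPM with shSlug1 and 33.7, 25.9, 48.5, 45.6 and 32.3 CPM with shSlug2. Sc5d read 96.4, 82.5, 102, 57.0 and 86.8 CPM, 99.5, 92.4, 74.1, 112 and 99.2 CPM and 50.6, 74.8, 109.8, 78.7 and 97.0 CPM. Sc5d overlapped complete medium in every group, and with shLuc its log2 change from it was -0.16 (adjusted p = 0.600). Hsd17b7 averaged 14.2 CPM (range 5.50 to 18.6), 12.7 (0 to 25.7) and 17.7 (3.23 to 37.3) in the 3 hairpin groups. Dhcr7 averaged 0.550 CPM (range 0 to 2.75), 2.88 (0 to 5.10) and 2.43 (0 to 5.11), and Idi1 1.18, 0 and 0.829. The shLuc value of Dhcr7 is 1 count in 5 libraries, and the pooled ratio of complete medium to shLuc was 26.3 with an exact 95% counting interval of 4.37 to 1076. That interval leaves out the spread between libraries, and the fed libraries of Dhcr7 ranged from 0 to 29.7 CPM.

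Among the regulators, Srebf1 read 3.71, 11, 15.5, 9.49 and 16.3 CPM with shLuc, 10.2, 19.0, 5.29, 4.29 and 4.72 CPM with shSlug1 and 4.82, 14.4, 15.3, 16.6 and 12.9 CPM with shSlug2. Srebf2 read 14.8, 22, 24.8, 25.3 and 27.1 CPM, 28.1, 21.3, 21.2, 21.4 and 9.45 CPM and 26.5, 31.7, 7.66, 24.9 and 32.3 CPM. Both SREBP genes stayed below complete medium in all 15 hairpin libraries. Srebf1 with shLuc lay below starved parental cells too, but by less than a single count (highest 16.28 CPM against lowest 16.37 CPM). It did not pass the test (adjusted p = 0.0643). Insig1 read 33.4, 24.7, 34.1, 44.3 and 43.4 CPM with shLuc, 56.1, 54.5, 47.7, 42.9 and 37.8 CPM with shSlug1 and 38.5, 34.5, 48.5, 41.4 and 71.1 CPM with shSlug2. Its means of 36.0, 47.8 and 46.8 CPM lay between those of starved and fed parental cells, and its call against complete medium (log2 change -0.70, SE 0.28, adjusted p = 0.0426) was lost in several alternatives, among them TMM scaling. Insig2 read 33.4, 41.2, 46.5, 44.3 and 38.0 CPM, 58.7, 59.2, 34.4, 25.7 and 18.9 CPM and 31.3, 46.1, 33.2, 37.3 and 45.2 CPM, overlapping both parental groups. Scap averaged 14.6 CPM (range 5.29 to 21.4) with shSlug1 and 12.8 (7.66 to 20.7) with shSlug2, and with shLuc it was lower than in complete medium (log2 change -1.67, SE 0.51, adjusted p = 0.00734).

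Of the handling genes, Stard4 read 0, 8.25, 12.4, 12.7 and 21.7 CPM with shLuc, 5.10, 14.2, 29.1, 4.29 and 28.3 CPM with shSlug1 and 12.04, 14.4, 12.8, 8.29 and 6.46 CPM with shSlug2. Lipa read 14.8, 0, 9.30, 9.49 and 8.14 CPM, 7.65, 7.11, 0, 21.4 and 0 CPM and 7.22, 8.63, 0, 0 and 6.46 CPM. Stard4 was far under complete medium in every hairpin library. Lipa lay under it in every one too and had no count in 5 of the 15. Its highest value, in shSlug1 replicate 4, was 21.4 CPM, against 38.1 CPM in the lowest fed library. Npc2 read 77.9, 168, 109, 101 and 125 CPM with shLuc, 166, 126, 156, 146 and 94.5 CPM with shSlug1 and 149, 132, 146, 95.3 and 142 CPM with shSlug2, overlapping both parental groups. Npc1 averaged 15.0 CPM (range 11 to 24.4), 8.38 (2.65 to 12.9) and 7.53 (2.41 to 12.8). It was not called between shLuc and starved parental cells (log2 change -1.06, SE 0.52, adjusted p = 0.135).

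No sterol gene was called between the starved hairpin groups, and few genes of any kind were. Of 25 members, 0 were called with shSlug1 against shLuc, 0 with shSlug2 against shLuc and 0 between the Slug hairpins, where 1.46%, 0.649% and 0.513% of all genes were called. At these shares a count of 0 among 25 is near the background and is no result about the members. With edgeR the counts were 0 in each comparison. DESeq2 also called 0, but with shSlug1 against shLuc it gave most members no adjusted p, Fdft1 and Mvd among them. Those members could not be called by it. At an unadjusted p under 0.05 there were 3, 0 and 0 members. The 3 were Fdft1 (log2 change -1.69, SE 0.61, adjusted p = 0.159), Mvd (log2 change 1.32, SE 0.64, adjusted p = 0.368) and Ebp (log2 change 0.57, SE 0.28, adjusted p = 0.373), all with shSlug1. The second hairpin gave log2 differences from shLuc of -1.15 for Fdft1, 0.20 for Mvd and 0.14 for Ebp. The 95% intervals reached from 0.39 to 1.70 log2 units to either side, with a median of 0.97, and these widths are not adjusted for the number of genes tested. Fdft1 and Mvd with shSlug1 lay beyond their own half-widths and were not called, so changes larger than the median width can be missed at this depth. The narrowest interval was that of Npc2 (-0.13 to 0.65 with shSlug1). Narrow intervals were also those of Pmvk (-0.35 to 0.47 with shSlug1 and -0.27 to 0.56 with shSlug2), Msmo1 (-0.33 to 0.50 and -0.17 to 0.66) and Sc5d (-0.23 to 0.59 and -0.48 to 0.34). The comparisons with shLuc share its libraries. Mitochondrially encoded genes took 19.8% of counts on average with shLuc, 20.9% with shSlug1 and 16.2% with shSlug2.

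**Figure D5:**
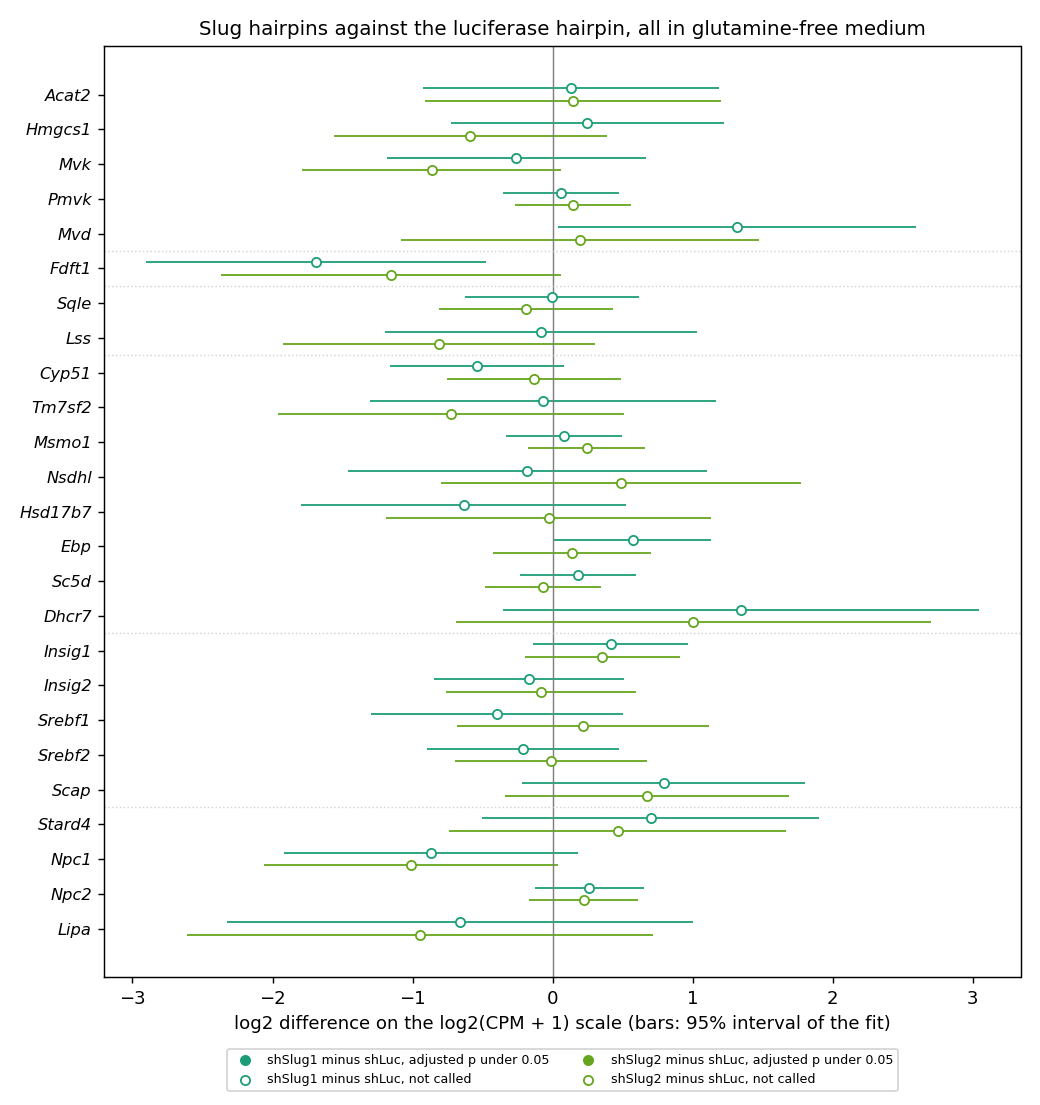
Log2 difference of each tested member from shLuc on the log2(CPM + 1) scale, for shSlug1 (dark green) and shSlug2 (light green), all in glutamine-free medium; bars are 95% intervals of the fit. No point is filled, as no member reached an adjusted p under 0.05, and the estimates run from -1.69 to 1.34.

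No gene of the 6 companion lists was called in the hairpin comparisons, where few genes of any kind were called (1.46%, 0.649% and 0.513%), so this count is near the background. Tmem97 averaged 27.7 ± 11.2 CPM under shLuc, 54.1 ± 7.66 under shSlug1 and 55.1 ± 9.74 under shSlug2, and missed the threshold with both hairpins (adjusted p = 0.0823 and 0.139). Its level with either Slug hairpin was near the 55.0 CPM of fed parental cells. Mid1ip1 averaged 98.6 ± 27.4 CPM with shLuc, against 50.05 in starved and 121 in fed parental cells, and was higher than in starved parental cells (log2 change 1.00, SE 0.20, adjusted p = 9.3e-05). Scd2 went further down, to 23.7 ± 7.38 CPM with shLuc (log2 change -1.59, SE 0.25, adjusted p = 1.4e-06 against starved parental cells). Of the 16 tested genes on the list of SREBP-1 fatty acid targets, which counts Tmem97, 13 were lower and 0 higher in shLuc cells against complete medium. Their median log2 change was -1.73, where 15.8% of all genes were lower and 17.3% higher and the median of all genes was -0.02.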

How the data were processed

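Messenger RNA of 25 KPC samples in 5 groups of 5 was measured. Per the labels' protocols, RNA came from the PureLink RNA Mini Kit and was tagged at 3' ends by the QIAseq UPX 3' Transcriptome kit. The authors deposited 1 table of normalised counts in CPM for 30926 genes. The build was mm10, per the submitters' processing notes. Not given in the sources used here are the aligner, the annotation, the use of molecular identifiers and strand, and the handling of shared reads. All values of the table (100%) were whole multiples of the smallest step of their column within a tolerance of 0.001, so read counts were recovered from the deposited CPM.

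All 25 libraries entered 1 limma-trend model (limma 3.58.1, R 4.3.3) of log2(CPM + 1), with 20 residual degrees of freedom. For low genes with libraries at 0, changes on this scale differ from those on counts: Lipa was -4.61 here and -3.48 with edgeR in starved against fed parental cells, and Fdft1 -4.16 and -3.32. Genes reaching 5 CPM in 5 or more libraries, 12473 in number, were kept. Tests were two-sided, Benjamini-Hochberg adjustment ran over every gene kept, and a call needed an adjusted p under 0.05. The counts were also tested with edgeR 4.0.16 (quasi-likelihood, TMM), which called 3068 genes in starved and 4832 in shLuc against fed parental cells, 3002 in shLuc against starved parental cells, 293 and 137 in shSlug1 and shSlug2 against shLuc and 88 between the Slug hairpins, and with DESeq2 1.42.0. The procedure was tested on simulated data for starved against fed parental cells only, with changes in genes of at least 20 CPM fed. That test does not cover changes in lower genes or the hairpin comparisons. Further alternatives changed the pseudocount to 0.5 or 5, dropped the filter or raised it to 20 CPM, and used TMM scaling, quantile scaling, scaling without mitochondrially encoded genes, a fit of only the groups compared, a replicate block, and leaving out each library. The members and lists were chosen with earlier results of these data known, so members were not tested as a set. All members are named, with every library for those with a group mean of at least 40 CPM and group means and ranges for the rest. From each companion list the called genes with the smallest p in starved against fed cells, at most 4, are named. Gene positions come from GENCODE M21 and promoters from RefSeq. Counting intervals and floors of 3 counts cover counting error only.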

Additional observations from a re-analysis of the deposited data

Results flagged for a closer look

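In 9 of 125 groups of 5 libraries examined, 1 library lay far from the others by Dixon's 95% limit, where chance alone gives about 1 group in 20. Lss read 56.4 CPM in starved parental replicate 5, where the group's median was 18.9. Stard4 had 0 counts in starved parental replicate 3, the shallowest library, where 3 counts are worth 18.9 CPM, and read 116 CPM in fed replicate 5. Hsd17b7 read 22.3 CPM in starved parental replicate 1 and 5.50 CPM in shLuc replicate 2. Pmvk read 126 CPM in shLuc replicate 2, Nsdhl 12.7 CPM in shLuc replicate 4 and Dhcr7 2.75 CPM, a single count, in shLuc replicate 2. Mvd read 4.29 CPM, a single count, in shSlug1 replicate 4.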

How the results depend on the processing

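No alternative that was run reversed a called member. Starved against fed parental cells gave 16 calls, 16 to 19 under the alternatives and 16 to 17 with 1 library left out, and shLuc against fed cells gave 19, then 19 to 21 and 17 to 20. The 3 hairpin comparisons gave 0 throughout, though DESeq2 gave most members no adjusted p with shSlug1 against shLuc. The 3 calls of shLuc against starved parental cells were the unsteady ones: 1 with a pseudocount of 0.5, 1 with no filter, 5 with a minimum of 20 CPM, 1 with only the groups compared, 1 with DESeq2, and 1 to 5 with 1 library left out. The count of 1 came without starved parental replicate 5 and without shLuc replicate 3, and the count of 5 without shLuc replicate 2. The split was 2 higher and 1 lower, 3 and 0 with TMM, and 1 and 3 without mitochondrially encoded genes. Deviations of same-numbered samples were hardly correlated (-0.05 to 0.03), which at this depth does not exclude pairing. The replicate block gave 17 calls in starved against fed parental cells and 19 in shLuc against fed cells. With that block there were 4 in shLuc against starved parental cells and 0 in the hairpin comparisons. The cause of these shifts was not tested. Depth limits Idi1, which had 0 counts in starved parental libraries, Mvd, Nsdhl, Dhcr7 and Lipa, which had 7 each in all 5, and Acat2, which had 11.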
